A study of Mus musculus with 4 samples.

Results

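The genes described here encode the killing machinery of natural killer (NK) cells and cytotoxic T cells. They are the granzymes Gzma, Gzmb and Gzmk, the pore-forming protein Prf1, the granule protein Nkg7, the surface receptors Klrk1, Klrd1, Klrb1c and Ncr1, and the transcription factor Eomes. The members were taken by gene symbol, from a list chosen with earlier results of these data known. The shares of all genes given beside the members therefore describe the list and do not test it. All 10 were present in the deposited table of 17335 genes, and all 10 reached 0.1 FPKM in at least 1 library, as did 15839 genes in all.

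Gene expression was measured by RNA-Seq of gonadal white adipose tissue (gWAT) of female mice kept on high-fat diet (HFD) for 18 weeks. AD1KO mice carry a Dnmt1 allele with loxP sites around exons 4 and 5 together with Cre under the adiponectin promoter, which drives deletion in adipocytes. The fl/fl mice were littermates with the floxed allele and intact Dnmt1, so the floxed allele, the sex and the diet were shared. Equal RNA of 4 animals per group was pooled into 1 library per group, so animals of a group cannot be compared with each other and the genotypes cannot be tested against each other. The ages of these animals are not given in the sources used here. Levels are FPKM (fragments scaled to transcript length and library size), and ratios are the log2 of AD1KO over fl/fl after adding 0.01 FPKM. Each library held about 17682000 (fl/fl) or 17565000 (AD1KO) reads by an estimate from the FPKM values, and the 95% intervals are exact counting intervals on estimated reads that cover counting error only. The targeted gene Dnmt1 stood at 6.99 FPKM in fl/fl and 3.33 FPKM in AD1KO, a log2 ratio of -1.07 (interval -1.27 to -0.87), in whole tissue that also holds cells without Cre.

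Cytotoxic lymphocytes store perforin and granzymes in secretory granules. When receptors on the lymphocyte engage a stressed, infected or transformed cell, the granules fuse with the membrane at the contact, perforin opens the target membrane, and the granzymes, which are serine proteases, enter and start cell death. NKG2D (Klrk1) and NKp46 (Ncr1) are activating receptors, CD94 (Klrd1) pairs with NKG2 chains, and NK1.1 (Klrb1c) is a lectin-like receptor used to identify NK cells in some mouse strains. Eomes, a T-box factor, is needed for NK cell maturation and for memory CD8 T cells. In obese adipose tissue, NK cells, group 1 innate lymphoid cells (ILC1) and CD8 T cells are known as sources of interferon-γ and of cytotoxic transcripts.

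Promoter sequence is shown first, with the matches to 9 motifs that were searched. Whether any motif bears on the levels described next was not tested. RefSeq start sites were available for 9 of the 10 members in GRCm38.p6, and the 250 bases before each start were matched letter for letter to mm9, the build of the expression table. The Runx core TGTGGT, read on both strands, was found in 7 of these 9 windows (Gzma, Gzmb, Prf1, Nkg7, Klrk1, Klrb1c and Ncr1), against 14% of 32851 RefSeq windows of the same length. The windows below are those of the protease, the pore former and the activating receptors whose values are described next. They are written 5′ to 3′ toward the gene, with each Runx core (TGTGGT or its reverse complement ACCACA) in capitals. Gzmb and Ncr1 held 2 copies each, and the windows of Gzmk and Eomes held none. The windows lie at chr14:56881172-56881421 on the minus strand, chr7:4289067-4289316 on the plus strand, chr10:60760334-60760583 on the plus strand and chr6:129573883-129574132 on the minus strand (mm9), and none of their bases lies in an annotated exon of the gene.
Gzmb: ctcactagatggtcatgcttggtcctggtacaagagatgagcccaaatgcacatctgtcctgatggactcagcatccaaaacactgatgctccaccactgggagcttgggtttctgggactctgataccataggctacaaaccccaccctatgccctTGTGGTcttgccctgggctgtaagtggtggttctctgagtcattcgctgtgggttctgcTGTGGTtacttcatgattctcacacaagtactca
Ncr1: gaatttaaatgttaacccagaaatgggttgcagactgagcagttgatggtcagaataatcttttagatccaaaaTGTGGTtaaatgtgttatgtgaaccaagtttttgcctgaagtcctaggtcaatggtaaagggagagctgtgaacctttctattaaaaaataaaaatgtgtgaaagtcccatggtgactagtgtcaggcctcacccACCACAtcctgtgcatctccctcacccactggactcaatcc
Prf1: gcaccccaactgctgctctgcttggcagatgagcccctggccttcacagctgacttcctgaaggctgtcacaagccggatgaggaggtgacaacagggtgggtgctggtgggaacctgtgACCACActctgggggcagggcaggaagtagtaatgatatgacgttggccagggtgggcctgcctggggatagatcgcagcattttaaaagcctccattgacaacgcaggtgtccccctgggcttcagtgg
Klrk1: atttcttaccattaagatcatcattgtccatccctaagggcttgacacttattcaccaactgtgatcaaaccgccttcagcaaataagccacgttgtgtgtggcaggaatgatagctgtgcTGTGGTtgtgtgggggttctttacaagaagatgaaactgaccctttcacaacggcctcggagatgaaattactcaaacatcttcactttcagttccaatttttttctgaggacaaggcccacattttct

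Other motifs were rarer in the members. The T-box core TCACACC, the class of site that Eomes binds, was present in Gzmk, with its first base 75 bases before the start, and in Nkg7, 13 bases before the start, which is 2 of 9 windows against 3.33% of all windows. The shorter TCACAC, which the longer core contains, was present in 4 of 9 against 12.3%. An Ets core (AGGAAG) was present in 3 of 9 against 29.5%, a STAT site (TTCNNNGAA) in 1 against 7.02%, an NFAT core (GGAAAA) in 1 against 20.4%, and an AP-1 site (TGANTCA) in 1 against 6.75%. A second Ets core (CGGAAG) and the E-box CACGTG were present in none of the 9 and in 13.6% and 6.02% of all windows. The CpG dinucleotides, at which Dnmt1 maintains methylation, were counted too. Cre drives the deletion in adipocytes, and a link between Dnmt1 and these windows was not tested. The member windows held 0 (Ncr1) to 8 (Eomes) CpG with a median of 3, the median over all windows was 6, and 8 of 9 members were at or below that median, as were 53.7% of all windows. The RefSeq start of Gzmk lies inside the longer GENCODE gene, and 65 bases of the Nkg7 window and 5 of the Klrb1c window fall in GENCODE exons. These are matches of letters only, and binding and methylation at these windows were not analysed here.

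To determine how the cytotoxic program differed between the genotypes, the levels were compared gene by gene. All 10 members were lower in AD1KO gWAT, by 3.02-fold (Eomes) to 10.8-fold (Gzmk). A log2 ratio of -0.5 or less was reached by 10 of 10 members and by 19.1% of all tested genes, and none of the members reached 0.5 or more, as 14.3% of tested genes did. The whole counting interval was at or below -0.5 for 10 of 10 members and for 8.37% of tested genes, and it was wholly below -1 for 8 members, with Prf1 and Eomes the exceptions. The median ratio of the members was -2.05, against -0.04 over all tested genes. Summed over the members, about 1207 reads in fl/fl compared with 281 in AD1KO, a log2 ratio of -2.09 (interval -2.29 to -1.90). Nkg7 gave the most reads, and without it the sum was 806 and 183, a log2 ratio of -2.13 (interval -2.37 to -1.90). In whole tissue, fewer cytotoxic cells and less of these mRNAs per cell cannot be told apart.

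**Figure D1:**
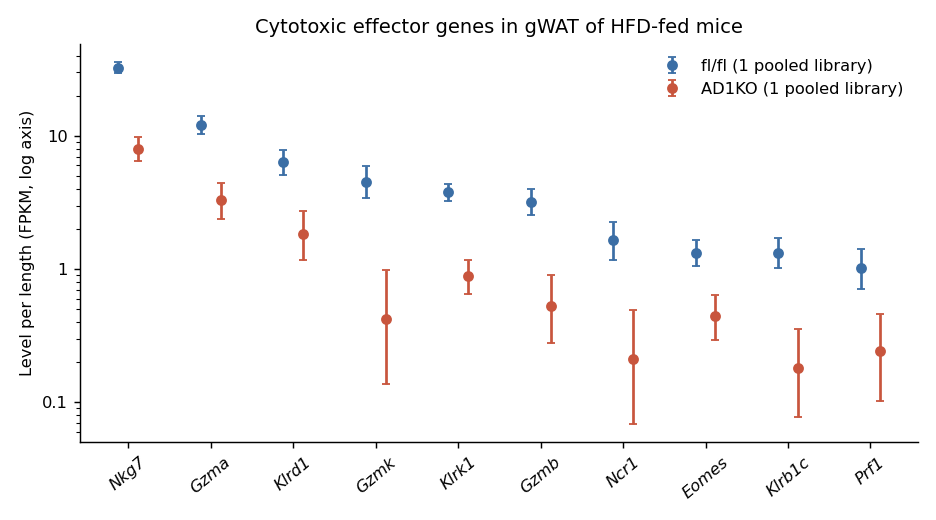
Level of each member in FPKM (log axis) in the fl/fl (blue) and AD1KO (red) libraries, ordered by the level in fl/fl, with 95% counting intervals as bars and 1 pooled library per group. Nkg7 is the highest in both libraries at 32.56 and 8.04 FPKM, and every AD1KO point lies below its fl/fl point with no overlap of the bars.

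The granule proteins carried most of the signal, with a summed level of 53.5 FPKM in fl/fl and 12.5 FPKM in AD1KO. Nkg7 (chr7:50692443-50693616, mm9), a granule membrane protein that supports granule release, stood at 32.56 FPKM in fl/fl and 8.04 FPKM in AD1KO, from about 401 and 98 reads. Its log2 ratio was -2.02 with the narrowest interval of the set, -2.36 to -1.70. Gzma (chr13:113884033-113891187), a tryptase-like granzyme abundant in NK cells, stood at 12.18 FPKM in fl/fl and 3.30 FPKM in AD1KO, from 164 and 44 reads. That is a log2 ratio of -1.88 (interval -2.40 to -1.40), the smallest fall among the granule proteins. Gzmb (chr14:56877693-56881097), which cuts caspases and their substrates after aspartate, stood at 3.20 FPKM in fl/fl and 0.53 FPKM in AD1KO, from 80 and 13 reads. Its ratio of -2.57 (interval -3.58 to -1.76) is a 6.04-fold lower level. Gzmk (chr13:113961816-114016116), a granzyme of memory and effector T cells and of some NK cells, stood at 4.52 FPKM in fl/fl and 0.42 FPKM in AD1KO. It had the largest fall of the set, a log2 ratio of -3.40, but rested on 54 and 5 reads, and its interval ran from -5.10 to -2.11. Esm1, an endothelial gene that lies within the annotated span of Gzmk on the opposite strand without sharing exon bases, had a log2 ratio of 0.11 from 13 and 14 reads. Prf1 (chr10:60760584-60767011), perforin, was the lowest member in fl/fl at 1.02 FPKM and stood at 0.24 FPKM in AD1KO. With 35 and 8 reads its ratio was -2.04 and its interval, -3.44 to -0.99, was wide.

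The shares of the granzymes differed between the libraries, with Gzmk resting on 5 reads in AD1KO. Gzma made up 61.2% of the summed FPKM of the 3 granzymes in fl/fl and 77.6% in AD1KO. Gzmb made up 16.1% and 12.5%, and Gzmk 22.7% and 9.88%, while the sum was 19.9 FPKM in fl/fl and 4.25 FPKM in AD1KO. Among the 45 pairs of members, the ratio of one differed from that of the other with a 95% counting interval past 0 in 4 pairs, each of which held Gzmk. Gzmk fell further than Nkg7 by 1.40 (interval 0.03 to 3.12), than Gzma by 1.53 (0.10 to 3.29), than Klrd1 by 1.63 (0.08 to 3.45) and than Eomes by 1.83 (0.31 to 3.64) on the log2 scale. At an interval of 99.89%, which allows for 45 pairs, 0 pairs remained. Neither the order of the falls among members nor a change in the granzyme proportions was resolved at this depth.

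The receptors were lower by a similar amount, with a summed level of 13.1 FPKM in fl/fl and 3.11 FPKM in AD1KO. Klrk1 (chr6:129560341-129573882), NKG2D, which senses stress-induced ligands, stood at 3.76 FPKM in fl/fl and 0.89 FPKM in AD1KO, from 206 and 48 reads. The log2 ratio was -2.07 (interval -2.58 to -1.63). Klrd1 (chr6:129541800-129548793), CD94, stood at 6.34 FPKM in fl/fl and 1.83 FPKM in AD1KO, from 84 and 24 reads, a log2 ratio of -1.79 (interval -2.52 to -1.13). The lowest ratios among the receptors belonged to those most restricted to NK cells and ILC1. Ncr1 (chr7:4289326-4296766), NKp46, stood at 1.64 FPKM in fl/fl and 0.21 FPKM in AD1KO, a ratio of -2.91 from 39 and 5 reads (interval -4.65 to -1.61). Klrb1c (chr6:128728503-128739233), NK1.1, stood at 1.32 FPKM in fl/fl and 0.18 FPKM in AD1KO, a ratio of -2.81 from 59 and 8 reads (interval -4.15 to -1.80). Klrb1c belongs to a family of close copies, so its reads may be partly shared and its value is less certain. The intervals of the 4 receptors overlapped, and none of their pairs differed past counting error.

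Eomes (chr9:118387330-118395250) had the smallest fall of the set. It stood at 1.33 FPKM in fl/fl and 0.44 FPKM in AD1KO, from 85 and 28 reads, a log2 ratio of -1.57 (interval -2.26 to -0.96).

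The order of the levels was similar in both libraries at its upper end. In fl/fl it ran from Nkg7 through Gzma, Klrd1, Gzmk, Klrk1, Gzmb, Ncr1, Eomes and Klrb1c to Prf1. Of the 9 neighbouring pairs in that order, 3 differed beyond counting error, namely Nkg7 above Gzma, Gzma above Klrd1 and Gzmb above Ncr1. In AD1KO, Gzmk moved from the 4th to the 7th place, Klrb1c was last at 0.18 FPKM, and the 3 pairs that differed were Nkg7 above Gzma, Gzma above Klrd1 and Klrd1 above Klrk1. The other 6 pairs in each library did not differ beyond counting error.

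The 7 pan-leukocyte genes were lower in the AD1KO library too, with log2 ratios of -1.29 to -0.95, so the members were set against references. Ptprc, which encodes the leukocyte antigen CD45, stood at 27.31 FPKM in fl/fl and 11.29 FPKM in AD1KO, a ratio of -1.27 (interval -1.38 to -1.17). A ratio at or below that of Ptprc was found in 10 of 10 members and in 5.85% of all tested genes. Relative to Ptprc, the members differed by -0.32 (Eomes) to -2.15 (Gzmk) on the log2 scale, and for 7 of 10 the interval of that difference lay below 0. The exceptions were Prf1 (-0.84, interval -2.17 to 0.30), Klrd1 (-0.52, -1.25 to 0.16) and Eomes (-0.32, with an upper bound of 0.32). All members together differed from Ptprc by -0.82 (interval -1.04 to -0.60). With Coro1a, an actin regulator of leukocytes, or the sum of the pan-leukocyte genes as the reference, the count was again 7 of 10.

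T cell transcripts came closer to the members. The T cell receptor complex genes Cd3d, Cd3e, Cd3g and Cd247 had ratios of -1.80, -1.58, -1.85 and -1.46, and their sum, 53.3 FPKM in fl/fl and 16.1 FPKM in AD1KO, had a ratio of -1.70 (interval -1.88 to -1.52). Cd247 also serves NK cell receptors. Cd8a and Cd8b1, the CD8 chains, had ratios of -1.71 and -1.50. Against the T cell receptor complex, the interval lay below 0 for 3 of 10 members, Gzmk (-1.73, interval -3.42 to -0.40), Klrb1c (-1.18, -2.47 to -0.08) and Gzmb (-0.92, -1.90 to -0.04). Ncr1 had a difference of -1.26 with an interval of -2.97 to 0.10, and the difference of Eomes was 0.10 (-0.59 to 0.76). All members together differed from the complex by -0.40 (interval -0.66 to -0.13). Since several members are transcribed by T cells too, the part of T cells in these values was not tested.

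**Figure D2:**
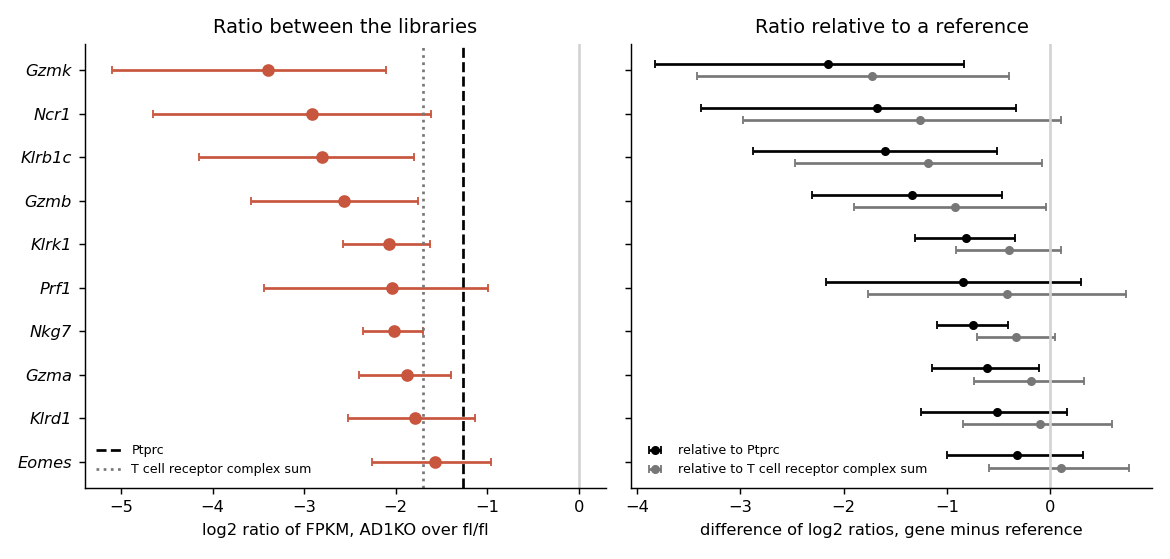
Left, log2 ratio of FPKM, AD1KO over fl/fl, for each member with its 95% counting interval, beside vertical lines for Ptprc (-1.27) and the summed T cell receptor complex (-1.70). Right, the same ratios minus that of each reference, with conditional counting intervals. Relative to Ptprc 7 of 10 intervals lie below 0, and relative to the T cell receptor complex 3 of 10.

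The partners of the members in the granule were examined next. Of 7 genes for granule processing and inhibition, 5 were lower and none was higher, with a median of -1.23. Ctsw, a protease of NK and CD8 T cells, stood at 6.79 FPKM in fl/fl and 1.73 FPKM in AD1KO, a ratio of -1.97. Cst7, a cystatin that restrains granzyme processing, stood at 6.89 and 1.25 FPKM, a ratio of -2.45 (interval -3.26 to -1.76). Ctsc, which activates granzymes and is also made by macrophages, had a ratio of -1.24, Crtam, an adhesion receptor of activated cytotoxic cells, -1.23, and the granule proteoglycan Srgn -0.77. The inhibitors Serpinb6b and Serpinb9, the latter a Gzmb inhibitor, had ratios of -0.42 and -0.32 and did not reach the threshold. Of the 8 genes for granule exocytosis, 4 were lower, Unc13d (-1.75), Stx11 (-1.18), Rab27a (-0.91) and Vamp8 (-0.70). Stxbp2 (-0.28), Ap3b1 (-0.21), Lamp1 (-0.12) and Lyst (0.01), which many cell types use, were within the threshold. The other granzymes in the table had few reads. Gzmc had 3 reads in fl/fl and was listed at 0 in AD1KO, Gzme had 3 and 7 reads, and Gzmm had 8 and 2.

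Other lectin-like NK receptors followed the member receptors. Of 19 tested, 18 were lower, none was higher, and 10 had the whole interval at or below -0.5. The median was -2.15, or -1.88 with the 2 genes that have over 3 reads in fl/fl and none in AD1KO set at the bound that 3 reads allow and 1 gene with fewer reads left out. Klra3 stood at 3.64 FPKM in fl/fl and 0.75 FPKM in AD1KO (-2.26), Klra2 at 3.07 and 0.58 (-2.38), Klra8 at 2.47 and 0.35 (-2.78), and Klrc1, the inhibitory NKG2A partner of CD94, at 1.89 and 0.70 (-1.42). The exception, named after its value was seen, was Klrb1a, with 15 and 18 reads and a ratio of 0.20 (interval -0.80 to 1.36). The Klra genes encode the Ly49 receptors and are close copies of each other, so the value of any one of them is uncertain. Of 13 other NK receptors, 12 were lower, none was higher, and the median was -1.67. The most abundant of them, the Fc receptor Fcgr3, which macrophages share, had a ratio of -1.40. The signalling lymphocyte receptors Slamf7 and Slamf6 had ratios of -1.65 and -1.67, and Il2rb, the shared chain of the interleukin-2 and interleukin-15 receptors, stood at 6.15 and 1.71 FPKM, a ratio of -1.84 (interval -2.23 to -1.48).

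Signal transducers and transcription factors were examined as well. All 13 tested adaptors and kinases were lower, from -2.04 to -0.87 with a median of -1.39. Tyrobp, the DAP12 adaptor, had a ratio of -1.19, Fcer1g, the Fc receptor γ chain that also carries NKp46 signals, -1.41, Syk -0.87 and Lcp2 -1.32, and all of these are made by myeloid cells too. The lymphocyte transducers Sh2d1a, Lat, Zap70 and Lck, named after their values were seen, had ratios of -2.04, -1.89, -1.74 and -1.64. Of 11 other transcription factors of cytotoxic lineages, 10 were lower, with a median of -1.07. Irf8 had a ratio of -1.25, Id2 -1.07, Nfil3 -0.91 and Zeb2 0.10. None of the 11 reached the ratio of Eomes, -1.57, the smallest fall of a member.

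Death ligands and cytokines that cytotoxic cells can make were lower as well. Macrophages and other cells also make Ccl5, Tnf and Tnfsf10. Of 6 tested macrophage genes 5 were lower too, with a median of -0.80, from -1.26 (Adgre1) to 0.30 (Cd163). The source of the cytokine transcripts in the tissue was not tested. All 8 tested death ligands and effector cytokines had ratios of -0.5 or less, with a median of -1.60, and 6 had the whole interval there. Ccl5, a chemokine of activated lymphocytes, stood at 189.46 FPKM in fl/fl and 35.97 FPKM in AD1KO, a ratio of -2.40 (interval -2.58 to -2.22). Ifng, interferon-γ, stood at 2.12 and 0.21 FPKM, a ratio of -3.28 from 41 and 4 reads (interval -5.29 to -1.88). Xcl1 had a ratio of -1.77, Lta -2.24, Tnf -1.43, Tnfsf10 (TRAIL) -0.88 and Fasl -1.08 from 18 and 8 reads. Csf2 had 2 and 1 reads.

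The ligands and the supporting cytokines split. Of 8 ligands of the member receptors or of their families, 4 were lower and none was higher. The median was -0.46, unchanged with H60c at its bound. H2-T23, the Qa-1 molecule that CD94 receptors bind, stood at 269.98 FPKM in fl/fl and 78.77 FPKM in AD1KO, a ratio of -1.78 (interval -1.86 to -1.70). The NKG2D ligands H60a and Raet1a had ratios of -0.06 (interval -0.40 to 0.27) and -0.53 (-1.59 to 0.47), and Clec2d, a ligand of the NK1.1 family, -0.39 (-0.48 to -0.30). Among the 4 ligands with the highest levels, H2-T23 alone was lower with its whole interval. Of 7 tested cytokines that act on NK cells, 5 were lower, with a median of -0.77 without Il2, which had 3 reads in fl/fl and was listed at 0 in AD1KO. Il15, the survival factor of NK cells, stood at 6.15 FPKM in fl/fl and 3.07 FPKM in AD1KO (interval of the log2 ratio -1.47 to -0.55), and its presenting receptor Il15ra had a ratio of -0.14 (interval -0.41 to 0.12). Il18 had a ratio of -0.31, Il12b -1.61, Il21 -1.35 and Il12a -0.54, the last 3 from 23 or fewer reads in either library.

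Other cells of the tissue did not all move alike. The B cell genes Ms4a1, Cd79a and Cd79b had ratios of -0.03, -0.70 and -0.68. Of 6 tested macrophage genes 5 were lower, with a median of -0.80. The largest falls were those of Adgre1 (-1.26) and Cd68 (-1.11), while Cd163 had a ratio of 0.30. Of 8 adipocyte genes 6 were higher, with ratios over the 8 from 0.37 (Pparg) to 0.96 (Cidec) and summed levels of 18300 FPKM in fl/fl and 27300 FPKM in AD1KO. The part of this difference in tissue makeup in the members' ratios was not tested. Of the genes that separate NK cells from ILC1, Eomes, Klra8 and Klrg1 were lower, with ratios of -1.57, -2.78 and -1.08. S1pr5 had a ratio of -0.30 from 11 and 9 reads, and Itga2 was under 0.1 FPKM in both libraries (0.08 and 0.04). Of the 5 ILC1 genes 4 were lower, Cxcr6 (-1.73), Il7r (-0.97), Cd200r1 (-0.95) and Tnfsf10 (-0.88), and Itga1, which many cell types express, was higher (0.66). Genes of both lists were thus lower, and the share of NK cells and of ILC1 in the members' ratios was not tested.

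**Figure D3:**
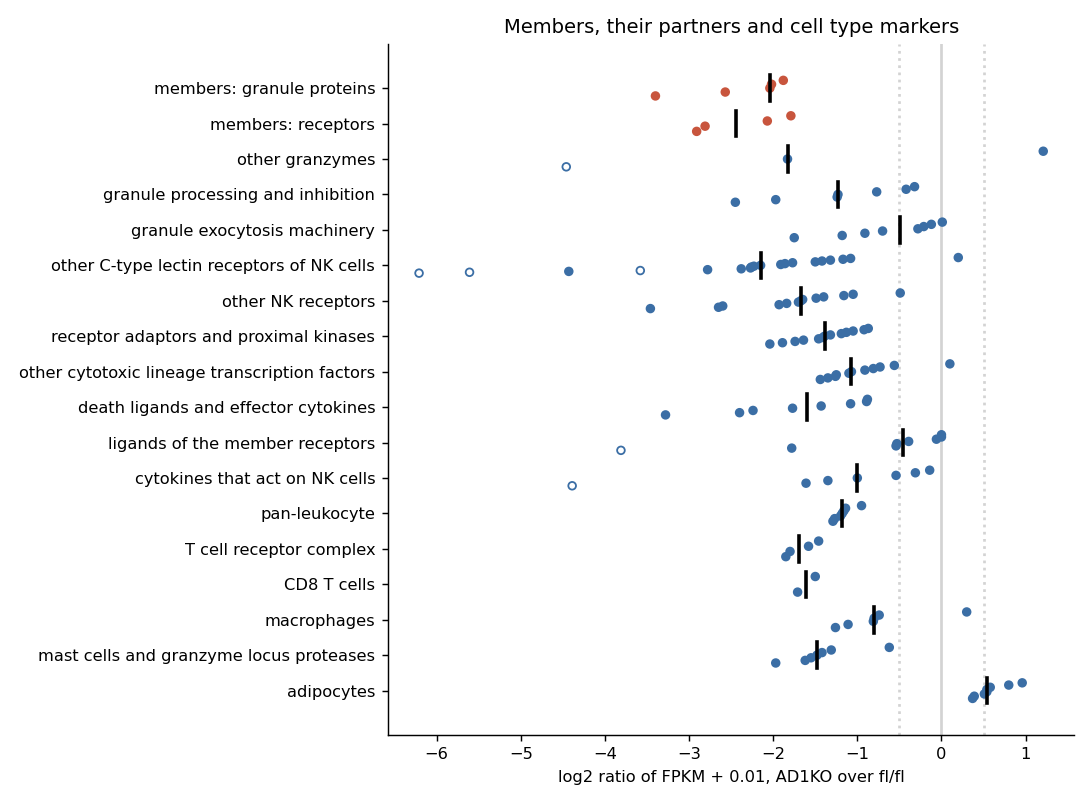
Points are the log2 ratio of FPKM plus 0.01, AD1KO over fl/fl, for tested genes. Red points are the member granule proteins and receptors, and blue points are genes of other lists. Black bars are list medians, open points are genes at 0 in 1 library, and dotted lines mark the threshold. Eomes and Dnmt1 are not drawn. Lists of CD4 T cells, innate-like T cells, B cells, dendritic cells, NK cells against ILC1, ILC1 and type 2 innate lymphoid cells are not drawn either. The drawn members center near -2 (medians -2.04 and -2.44), T cell receptor complex genes near their median of -1.69, pan-leukocyte genes near -1.18, and adipocyte genes lie above 0.

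Klrb1c, Klrd1 and Klrk1 lie in the NK gene complex, a cluster of lectin-like receptor genes on chromosome 6. Between Klrb1a and Klra2, a span of 2638 kb (chr6:128559245-131197380, mm9), 18 other Klr genes were tested and 17 were lower, with a median of -2.19. In the same span, 10 of 15 tested genes outside the Klr family were lower and none was higher, with a median of -1.12. These include Clec genes of myeloid cells, such as Clec7a (-1.60), and Gabarapl1, a broadly expressed autophagy gene next to the receptors, which had a ratio of 0.23. These genes are named after their values were seen. Around all 10 members, 46 tested genes lay within 250 kb and in none of the lists, of which 18 (39.1%) were lower and 5 higher, with a median of -0.18, against 19.1% lower among all tested genes. Genes of the NK gene complex outside the Klr family, many of them lower as given above, are among these 46. The share lower without them was not computed.

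**Figure D4:**
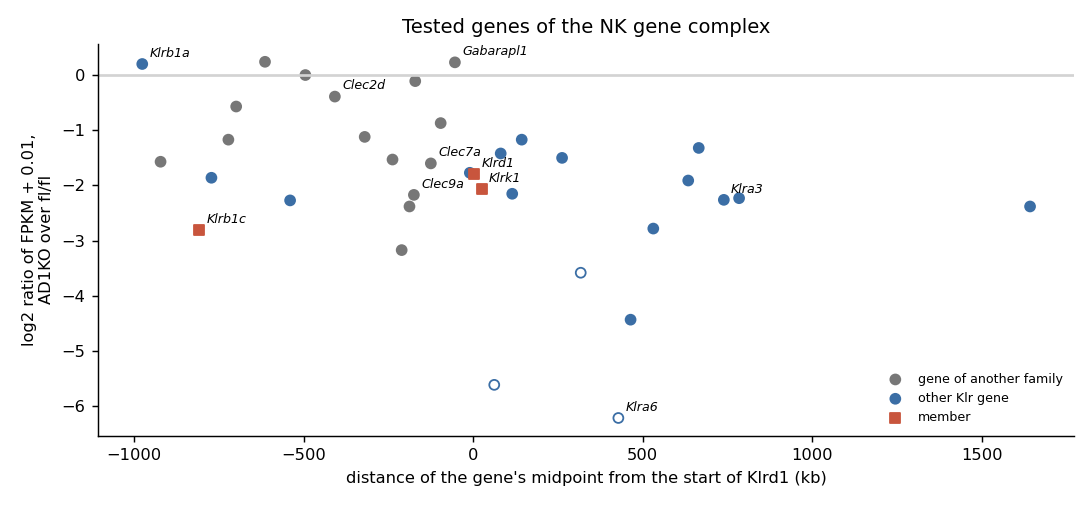
Log2 ratio of FPKM plus 0.01, AD1KO over fl/fl, against the distance of each gene's midpoint from the start of Klrd1 in kb, for tested genes of the NK gene complex. Red squares are the 3 members, blue points other Klr genes, grey points genes of other families, and open points genes at 0 in AD1KO, whose height depends on the added 0.01 FPKM. The members lie at -2.81, -1.79 and -2.07, and Klrb1a and Gabarapl1 are among the points above 0.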

How the data were processed

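RNA-Seq of gWAT was carried out on 1 pooled library each of 4 fl/fl and 4 AD1KO mice. Per the labels and methods, mRNA was selected with oligo(dT) and sequenced on a BGISEQ-500, and clean reads were aligned to mouse mm9. The aligner, the quantifier and strand marking are not given in the sources used here. The authors deposited FPKM per gene with 0 written as 0.01, which was set back to 0. Their fold changes, P-values and FDR were not used. The RRBS samples were not analysed here.

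The log2 ratio was computed after adding 0.01 FPKM, for genes with at least 0.1 FPKM in 1 library, with a threshold of 0.5. Reads were estimated from FPKM and length less 117 bases, at the depth where the low values of short genes fell on whole reads. At that depth 78.6% of 510 genes in fl/fl and 77.9% of 503 in AD1KO fell within 0.15 of a whole number. The intervals are exact Clopper-Pearson intervals, or conditional intervals of an odds ratio, at 95%. Counts of reads may include copies from PCR, and intervals cover counting error only. Over both libraries, a median of about 574 reads was estimated for tested genes. No p-value was computed. The steps were tested on simulated data.

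The members and the gene lists were chosen with earlier results of these data known. Genes named are the members, Dnmt1, Ptprc, genes of lists of up to 8, and the 4 with the highest level in longer lists. Positions are from GENCODE vM1 (mm9), and promoters are from RefSeq (GRCm38.p6). Alternatives were 3 scalings, pseudocounts of 0.1 and 1 FPKM, other filters, estimated reads with 0.5 added, a threshold of -1 and other references. Python 3.11.15, NumPy 2.4.6, pandas 2.3.3, SciPy 1.17.1 and Matplotlib 3.10.9 were used.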

Additional observations from a re-analysis of the deposited data

How the results depend on the processing

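Trimmed mean of M-values, upper quartile and median of ratios scaling put AD1KO at -0.05, -0.09 and -0.04 against fl/fl on the log2 scale. Removing these offsets raised the members' ratios slightly. With these scalings, another pseudocount, another filter or estimated reads, all 10 members kept a log2 ratio under 0. The ratios of 7 members moved with a pseudocount of 1 FPKM, which compresses low levels, and the 10 then ranged from -1.96 to -0.69 with a median of -1.35. With the T cell receptor complex in place of Ptprc as the reference, every member's difference moved up by the same amount. That for Eomes turned to 0.10, Nkg7 moved from -0.75 to -0.33, Gzma from -0.61 to -0.19, Klrd1 from -0.52 to -0.10 and Klrk1 from -0.82 to -0.40, and the intervals of Gzma, Nkg7, Klrk1 and Ncr1 no longer lay below 0. The share of all tested genes lower and higher was 19.1% and 14.3% as deposited, 17.6% and 15.9% with the trimmed mean, 16.5% and 17.7% with the upper quartile, and 17.9% and 15.5% with the median of ratios. No paired analysis was possible because each group has 1 pooled library, and no replicate could be left out. Depth limits Gzmk, Ncr1, Prf1 and Klrb1c most, with 5 to 8 reads in AD1KO.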

Other observations

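Gzmb lies on chromosome 14 beside a cluster of mast cell proteases, which are serine proteases related to the granzymes. Of 7 tested mast cell and granzyme locus genes, all 7 were lower and 4 had the whole interval at or below -0.5. Mcpt4 stood at 130.43 FPKM in fl/fl and 52.48 FPKM in AD1KO (log2 ratio -1.31), Cma1 at 76.61 and 24.92 (-1.62), Tpsb2 at 108.70 and 39.07 (-1.48) and Cpa3 at 51.48 and 17.56 (-1.55). Tpsb2 and Cpa3 lie on other chromosomes than Gzmb.

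Tigit and Klra6 were chosen after their values were seen. Tigit, an inhibitory receptor of T and NK cells, stood at 4.05 FPKM in fl/fl and 0.36 FPKM in AD1KO, a log2 ratio of -3.46 from 101 and 9 reads (interval -4.65 to -2.50). Klra6 had 13 reads in fl/fl and none in AD1KO, and its counting interval ended at a log2 ratio of -1.60. Foxp3, the factor of regulatory T cells, stood at 1.25 and 0.30 FPKM, a ratio of -2.02 (interval -2.87 to -1.33), and Cd4 had a ratio of -1.50. Of 5 genes of type 2 innate lymphoid cells, 3 were lower and 2 higher in AD1KO, with a median of -0.63. Il1rl1 and Gata3 had ratios of -0.63 (interval -0.98 to -0.30) and -0.73 (-1.47 to -0.01). Areg had 3 reads in fl/fl and 0 in AD1KO. In the other direction, Il5 had 0 and 3 reads and Il13 had 0 and 7. The counting interval of Il13, a cytokine that mast cells and T cells make too, began at a log2 ratio of 0.54.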
